A study of Mus musculus with 11 samples.

Results

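Proteasome genes were examined in mouse hepatocytes with and without Xbp1. They were taken as the protein-coding genes whose GENCODE M21 symbol starts with Psma, Psmb, Psmc or Psmd and then a digit, leaving out the interferon-inducible Psmb8 and Psmb9. The rule used names only and no measured value, though the genes were chosen with earlier results of these data known. It found 38 genes, spread over 16 chromosomes, among the 54232 gene identifiers of each count table. By their known roles, 31 of them encode the constitutive subunits of the 26S proteasome and 3 are chaperones of its assembly (Psmd5, Psmd9 and Psmd10). Another 3 are alternative core subunits: Psma8 of the testis, Psmb11 of the thymus, and Psmb10. The rule kept Psmb10 although it belongs to the immunoproteasome with Psmb8 and Psmb9. The remaining gene, Psmc3ip, is matched by its name alone and acts in meiotic recombination.

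The proteasome degrades proteins that carry ubiquitin chains. Its barrel-shaped 20S core has outer rings of alpha subunits and inner rings of beta subunits, and only Psmb5, Psmb6 and Psmb7 among the constitutive beta subunits cut peptide bonds. The 19S cap recognises ubiquitin, removes it, and unfolds the substrate with a ring of ATPases. Proteins that fail to fold in the endoplasmic reticulum are sent to the cytosol for degradation by the proteasome, and hepatocytes, which secrete most plasma proteins, rely on this route. XBP1 is the transcription factor made when IRE1 splices the Xbp1 mRNA during the unfolded protein response. Transcription of the subunit genes is known to be raised together by the factor NFE2L1 (NRF1) when proteasome activity falls short.

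Hepatocytes were isolated from C57BL/6 mice, adult males by the study's methods, purified on Percoll, and their RNA was sequenced as single-end reads of 50 bases. Xbp1 LKO mice lacked Xbp1 exon 2 in the liver through a Cre driven by the albumin promoter. The controls were Xbp1 fl/fl mice, which carry the floxed alleles. The mice were fed chow or HFS, a diet rich in fat and sugar, for up to 6 weeks. There were 3 libraries of chow-fed Xbp1 fl/fl mice, 2 of chow-fed Xbp1 LKO mice, and 3 of each genotype on the HFS diet. A chow library came from 1 mouse and an HFS library from a pool of 2 mice. The replicates are thus separate animals or pools, and the pools average over animals where the chow libraries do not.

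Libraries held 19191032 to 23888401 counts. Values are given as CPM, a gene's count divided by the scaled library total and put on a common base, after TMM scaling, in which edgeR sets the libraries to a common level by most of their genes. Over the whole Xbp1 gene, CPM was 194, 200.3 and 221 in chow-fed Xbp1 fl/fl and 95.7 and 128 in chow-fed Xbp1 LKO hepatocytes, and 301, 295 and 242 against 117, 97.3 and 135 on the HFS diet, so each Xbp1 LKO library was below each Xbp1 fl/fl library. The log2 fold change was -0.87 on chow (SE 0.18, adjusted p = 0.0183 by edgeR) and -1.26 on the HFS diet (SE 0.16, adjusted p = 0.00254); the chow call was lost in 5 of 13 alternatives, among them each fit without a chow-fed Xbp1 LKO library. The tables give 1 value per gene, and so cannot show the loss of exon 2 by itself. Hepatocyte markers were abundant in every library, but the summed CPM of 10 of them ran on chow from 125000 to 159000 in Xbp1 fl/fl against 31900 and 62400 in Xbp1 LKO, and with HFS feeding from 101000 to 120000 against 48400 to 79600. Albumin alone took 5.88% to 10.9% of the counts in Xbp1 fl/fl and 1.67% to 5.40% in Xbp1 LKO libraries. Markers of other liver cells were low, at 21.6 to 111 CPM summed over 7 endothelial, 8.45 to 57.5 over 6 stellate and 3.38 to 16.1 over 5 cholangiocyte genes. In bulk samples like these, fewer cells of a type and less RNA per cell cannot be told apart. TMM factors were 0.878 to 0.938 in Xbp1 fl/fl and 1.05 to 1.19 in Xbp1 LKO libraries, so the genotypes also differ in how far the scaling moved them.

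The constitutive subunit genes were well expressed and even across the libraries. Together the 31 genes took 0.250% to 0.358% of all counts. Per kilobase of the principal transcript, the median gene had 62.3 CPM, and 26 of 31 had 30.8 CPM per kilobase or more. Psmb6, the caspase-like catalytic subunit, was highest at 168 CPM per kilobase (142 to 186 over the libraries), ahead of the structural subunits Psmb4 (134) and Psma7 (120). Psma3 was lowest at 6.84 CPM per kilobase (5.44 to 8.27), below Psma5 (14.4), Psmb5 (23.2), Psma2 (24.6) and Psmb3 (30.2). Of the other catalytic subunits, Psmb7, which is trypsin-like, had 72.3 and Psmb5, which is chymotrypsin-like, had 23.2 CPM per kilobase. The order depended on the length used. Per kilobase of all annotated exons, Psma6 (90.4) and Psmb4 (81.3) lay above Psmb6 (71.4), Psma7 had 35.8, Psmb7 (24.5) was close to Psmb5 (23.2), and Psma3 was again lowest at 5.0. Of the low genes, Psmb5, Psmb3, Psma5 and Psma3 share 22.0% or more of their 50-base stretches with other annotated genes, mostly pseudogenes. The 7 subunit genes with at least 20% of such stretches shared had a median of 30.2 CPM per kilobase, and the 24 with less had a median of 63.8. The leading copies of Psma3, Psma4, Psma5 and Psmd2 held 173, 181, 10 and 83 counts over all libraries, against 4638, 18452, 4269 and 45168 for the genes themselves. The leading copy of Psmb3 was not among the genes counted. Psmd11, under the cut of 20%, shares 18.9% of its stretches with A730017L22Rik, which held 1951 counts against 20937 for Psmd11. Reads left uncounted for matching both places would not show in these counts.

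**Figure D1:**
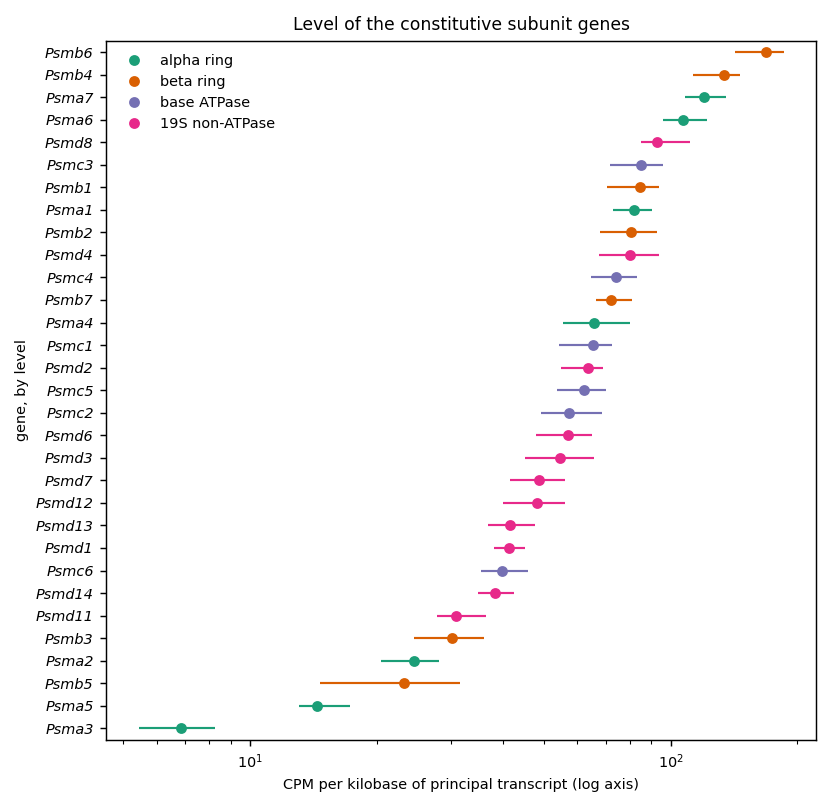
Level of the 31 constitutive subunit genes in CPM per kilobase of principal transcript, on a log axis, ordered by level; points are means over the 11 libraries and lines run from the lowest to the highest library. By this length Psmb6 leads at 168 and Psma3 is lowest at 6.84, and most lines are short beside the distance between genes.

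The alternative core subunits and Psmc3ip gave a different picture. Psmb11, the thymus subunit, had 0 counts in all 11 libraries. Psma8, the testis subunit, had 0.548 to 1.62 CPM, and Psmc3ip had 0.0578 to 0.598 CPM. Psmb10, the immunoproteasome subunit that takes the place of Psmb7, had 23.6 to 38.8 CPM. The filter on low counts kept 37 of the 38 genes for testing, Psmb11 being the one left out. Chaperone genes were at 10.1 to 12.5 CPM (Psmd10), 35.2 to 53.8 CPM (Psmd5) and 48.5 to 79.6 CPM (Psmd9).

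Within groups, the constitutive subunit genes varied little from library to library. The median within-group SD was 0.125 on the log2 CPM scale (0.0807 to 0.259), against 0.153 for the 5096 genes with a mean CPM in the same range and 0.228 for all genes tested. Psmd1, a scaffold of the base of the cap, was the steadiest at 0.0807, and its highest library was 1.19 times its lowest. Psmb5 was the least steady, with a highest library 2.15 times its lowest. The heat map of log2 CPM by library shows most genes within narrow limits and Psmb5 apart.

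**Figure D2:**
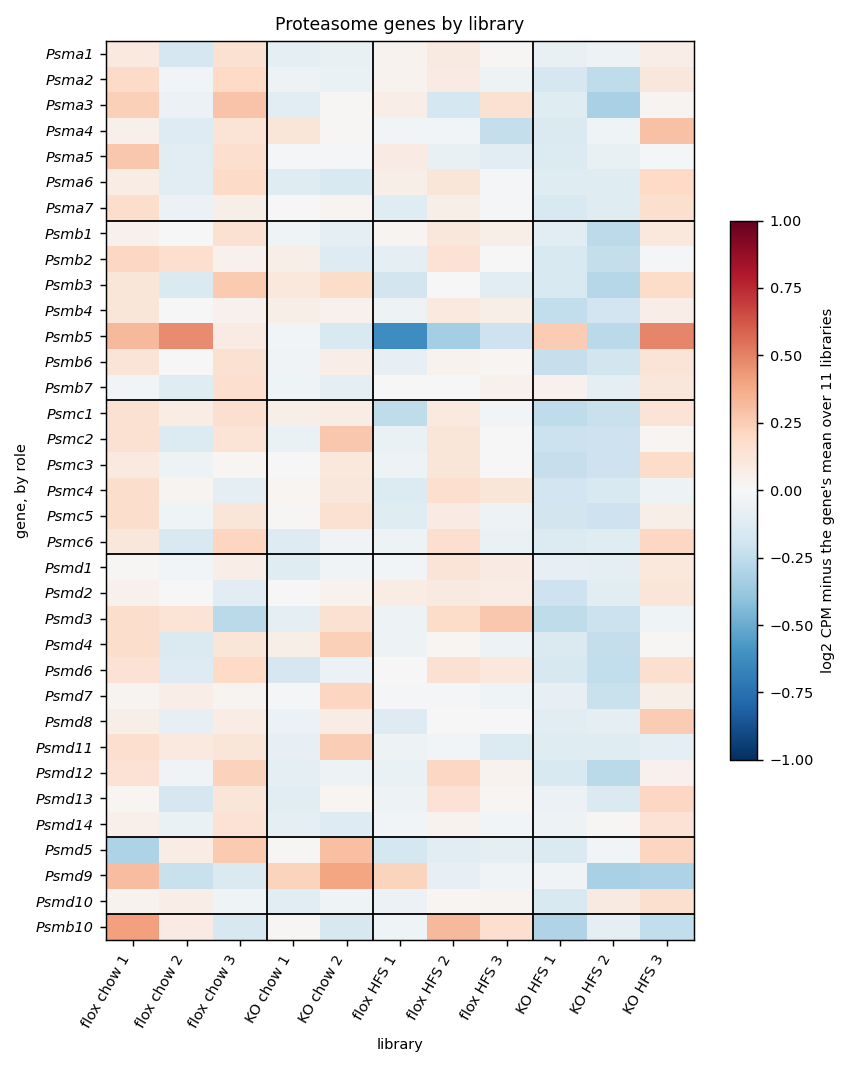
Each cell is the log2 CPM of a gene in a library minus that gene's mean over the 11 libraries; rows are 35 genes by role (alpha ring, beta ring, base ATPases, other 19S subunits, assembly chaperones, Psmb10) and columns are libraries by group. Psmb5 shows the strongest colours, and the column of the third HFS-fed Xbp1 LKO library is warmer than the 2 beside it for nearly all subunits.

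Loss of Xbp1 was compared first in chow-fed mice. None of the 37 proteasome genes passed the threshold of 0.05 by quasi-likelihood in edgeR, with p adjusted by Benjamini and Hochberg over all 13303 genes tested (0 of 37, where 4.75% of all genes passed). At an unadjusted p under 0.05 there were also 0 of 37 genes, against 2561 of all 13303 genes, and DESeq2 called 0 of the 37. The median log2 fold change of the 37 genes was -0.05, beside 0.00 for all genes tested and -0.004 for those with a mean CPM of 10 or more. Below 0 were 24 of 37, against 49.7% and 50.6% in the same order. The median of the 37 genes was -0.10 without the second Xbp1 fl/fl library and -0.11 without the second Xbp1 LKO library. It was -0.03 without the first library of either genotype. Fold changes ran from -0.39 (Psmb5) to 0.31 (Psmd9, an assembly chaperone). A gene that misses the threshold may still differ, so the intervals are the more telling values. The 95% interval lay within a log2 change of 0.5 in either direction for 27 of 37 genes (73.0%, against 24.9% of all genes and 41.9% of the 7496 genes with a mean CPM of 10 or more), and within 1 for 35 of 37.

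On the HFS diet the result was the same in count. Again 0 of 37 genes passed, where 4.08% of all genes did, and DESeq2 called 0. An unadjusted p under 0.05 was found for 3 of 37 genes (Psmb5, Psmb10 and Psmd3), against 2322 of all 13303 genes. The median log2 fold change was -0.08 beside 0.01 for all genes, with 28 of 37 below 0 against 48.6%. Of the genes with a mean CPM of 10 or more, 55.6% were below 0, with a median of -0.03. The 95% interval lay within 0.5 for 31 of 37 genes (83.8%, against 34.2% of all genes and 55.7% of those with a mean CPM of 10 or more). The plot of genotype differences shows all 35 of the better expressed genes on both diets, and Psmb5 is the gene whose sign differs most between them.

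**Figure D3:**
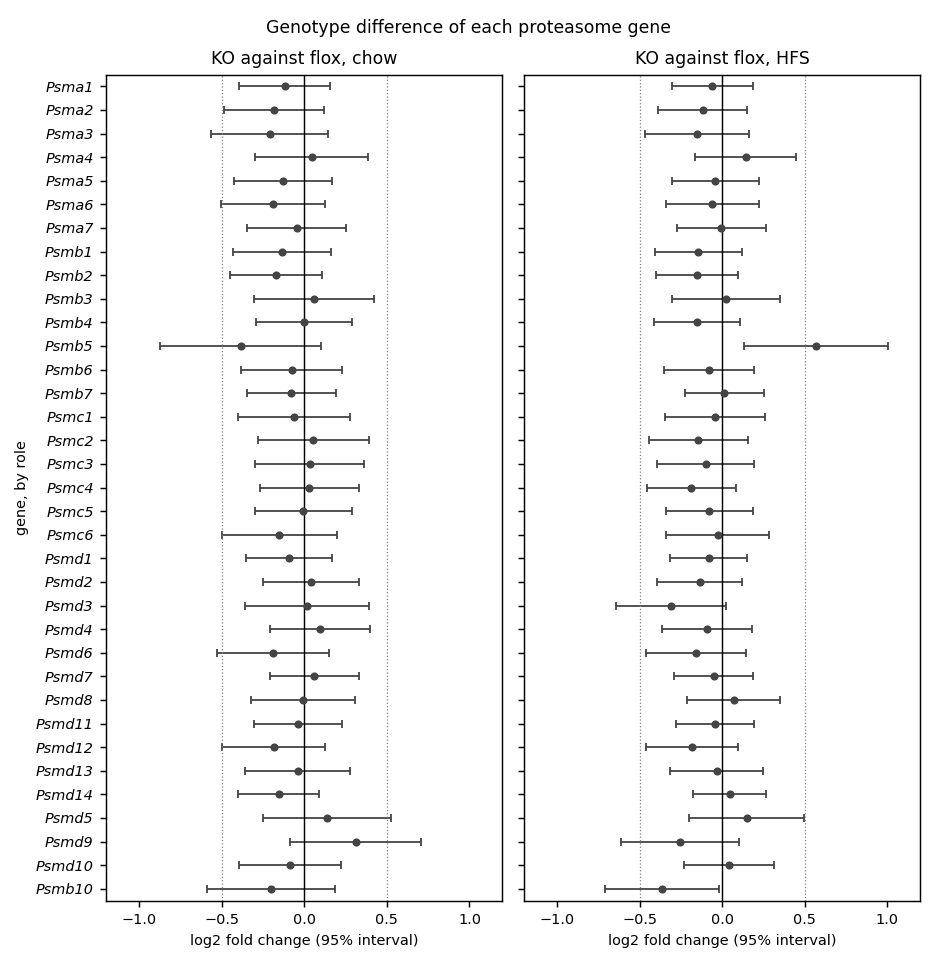
Log2 fold change of Xbp1 LKO against Xbp1 fl/fl libraries for 35 proteasome genes on chow (left) and on the HFS diet (right); bars are 95% intervals from the standard error of edgeR's fit and dotted lines mark 0.5 in either direction. Nearly all intervals cross 0 and most stay between the dotted lines, while Psmb5 lies at -0.39 on chow and 0.57 on the HFS diet.

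Taking both diets together gave the narrowest intervals. The genotype effect averaged over the diets passed for 0 of 37 genes, where 11.9% of all genes passed, and DESeq2 called 0. The smallest adjusted p was 0.129, for Psmb10, the only gene of the 37 with an unadjusted p under 0.05. Of all 13303 genes, 3401 had an unadjusted p under 0.05. Under TMM scaling, all 31 constitutive subunit genes had a 95% interval within 0.5 in either direction. The same held for 46.2% of all genes and 70.0% of those with a mean CPM of 10 or more. Their median log2 fold change was -0.06, and 25 of 31 were below 0, against -0.01 and 52.3% for genes with a mean CPM of 10 or more. The constitutive subunit genes tend to move together from library to library, so the shared sign is not that many separate observations.

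None of the 7 structural alpha subunits, which form the gated outer rings, passed the test. Over both diets, 6 of the 7 had a log2 fold change below 0 under TMM scaling, with a median of -0.09. Psma3 had 22.8, 18.5 and 23.6 CPM in chow-fed Xbp1 fl/fl, 17.9 and 19.5 in chow-fed Xbp1 LKO, 20.2, 17.1 and 21.5 in HFS-fed Xbp1 fl/fl, and 17.8, 15.5 and 19.7 in HFS-fed Xbp1 LKO hepatocytes. The genotypes overlapped on both diets, and the fold change over both diets was -0.18 (SE 0.10, adjusted p = 0.292). Psma2 had 81.3, 69.8 and 81.8 CPM in chow-fed Xbp1 fl/fl against 68.8 and 67.9 in chow-fed Xbp1 LKO hepatocytes, and 72.9, 75.5 and 69.0 against 63.3, 59.8 and 77.1 on the HFS diet. The chow groups of Psma2 did not overlap, while on the HFS diet the third Xbp1 LKO library was the highest of the 6 (-0.15, SE 0.09, adjusted p = 0.308 over both diets). Psma6 showed the same pattern, with 117, 103 and 127 CPM against 102 and 100.1 on chow, and 116, 121 and 109 against 102, 102 and 127 on the HFS diet (-0.13, SE 0.09, adjusted p = 0.434).

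Among the constitutive beta subunits, the non-catalytic Psmb2 and Psmb1 had the smallest p over both diets. Psmb2 had 79.6, 77.3 and 71.1 CPM in chow-fed Xbp1 fl/fl against 71.8 and 63.1 in chow-fed Xbp1 LKO hepatocytes, and 64.6, 76.3 and 68.9 against 62.1, 58.4 and 67.8 on the HFS diet. The groups overlapped on both diets, and the fold change over both was -0.16 (SE 0.08, adjusted p = 0.222). Psmb1 had 153, 149 and 165 CPM against 144 and 139 on chow, and 151, 160.2 and 154 against 137, 124 and 159.7 on the HFS diet (-0.14, SE 0.08, adjusted p = 0.326). Its chow groups were apart and its HFS groups overlapped through the third Xbp1 LKO library.

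The other catalytic subunits were close between genotypes. Psmb6 had 146, 133 and 148 CPM in chow-fed Xbp1 fl/fl against 129.9 and 139.7 in chow-fed Xbp1 LKO hepatocytes, and 126, 137 and 135 against 114, 117 and 145 on the HFS diet. Its fold change over both diets was -0.08 with a 95% interval from -0.28 to 0.12 (adjusted p = 0.63). Psmb7 had 82.1, 76.9 and 94.0 CPM against 81.4 and 78.1 on chow, and 83.3, 84.1 and 86.2 against 86.4, 78.8 and 90.7 on the HFS diet, with a fold change of -0.03 and an interval from -0.21 to 0.15 (adjusted p = 0.84). Both genes overlapped between genotypes on both diets. Psmb7 overlaps Nek6 on the opposite strand, and 28.1% of its 50-base stretches lie in that overlap. Its counts are thus certain only if strand was used in counting. The same holds for Psmd13, which shares 15.1% of its stretches with the overlapping Sirt3, and for Psmc3ip, which shares 27.1% with Mlx.

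Psmb10 had the smallest p of the genotype effect over both diets. On chow, its CPM was 38.8, 30.9 and 26.1 in Xbp1 fl/fl and 29.4 and 26.2 in Xbp1 LKO hepatocytes, and with HFS feeding 28.4, 36.4 and 32.7 in Xbp1 fl/fl and 23.6, 27.5 and 24.7 in Xbp1 LKO hepatocytes. The chow groups overlapped and the HFS groups did not. The log2 fold change was -0.36 on the HFS diet (SE 0.15, adjusted p = 0.221) and -0.28 over both diets (SE 0.11, adjusted p = 0.129); without the third chow-fed Xbp1 fl/fl library the latter was -0.35 and passed (adjusted p = 0.0424). Psmb10 is known to be high in immune cells. The summed CPM of 8 macrophage markers was 13.9 to 58.8 in chow-fed Xbp1 fl/fl, 14.7 and 22.3 in chow-fed Xbp1 LKO, 27.6 to 38.4 in HFS-fed Xbp1 fl/fl and 37.5 to 69.4 in HFS-fed Xbp1 LKO libraries, and that of 4 lymphocyte markers was at most 0.383 CPM anywhere. Within the chow-fed Xbp1 fl/fl group the first library was highest both in Psmb10 and in macrophage markers (58.8 against 13.9 and 14.1), and the part of such cells in the Psmb10 values was not tested. The other immunoproteasome subunits, which belong to antigen presentation on MHC class I, also missed the threshold over both diets, with fold changes of -0.15 for Psmb8 and -0.13 for Psmb9 (SE 0.15 and 0.18, adjusted p = 0.604 and 0.71).

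The 6 ATPases of the base, which unfold the substrate and open the core, had fold changes over both diets from -0.09 (Psmc6) to -0.03, all below 0 and none past the test. On chow 3 of the 6 were below 0 and on the HFS diet all 6 were. No single ATPase gene had an unadjusted p under 0.05 in any of the 6 comparisons made.

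The 11 other subunits of the 19S cap include the scaffolds Psmd1 and Psmd2, the ubiquitin receptor Psmd4, the lid deubiquitinase Psmd14 and the structural lid proteins. Over both diets 8 of 11 had a fold change below 0, with a median of -0.05. The lid subunit Psmd12 had 101, 89.2 and 107 CPM in chow-fed Xbp1 fl/fl against 86.0 and 88.1 in chow-fed Xbp1 LKO hepatocytes, and 87.2, 106 and 93.6 against 82.2, 75.9 and 94.2 on the HFS diet (-0.19, SE 0.09, adjusted p = 0.218). Its chow groups were apart by about 1 CPM, and its HFS groups overlapped. Psmd6, another lid subunit, had 86.7, 72.0 and 90.2 CPM against 69.8 and 75.5 on chow, and 78.2, 87.6 and 84.6 against 70.2, 66.4 and 87.7 on the HFS diet (-0.17, SE 0.10, adjusted p = 0.29), with overlap on both. Psmd3, also of the lid, had 132, 128 and 96.6 CPM against 109.8 and 129.9 on chow, which overlapped widely, and 113, 133 and 141 against 97.6, 101 and 113 on the HFS diet, where the highest Xbp1 LKO library was level with the lowest Xbp1 fl/fl library. Its log2 fold change was 0.01 on chow and -0.31 on the HFS diet (SE 0.14, adjusted p = 0.286).

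Of the assembly chaperones, Psmd5 had 35.2, 45.8 and 52.1 CPM in chow-fed Xbp1 fl/fl against 43.9 and 53.8 in chow-fed Xbp1 LKO hepatocytes, and 38.5, 40.3 and 40.9 against 39.3, 42.8 and 50.6 on the HFS diet (0.14, SE 0.11, adjusted p = 0.477 over both diets). Both pairs of groups overlapped. Psmd9, named here after its values were seen, had 75.2, 52.0 and 54.7 CPM against 70.8 and 79.6 on chow, and 70.6, 57.3 and 59.0 against 59.1, 48.5 and 49.0 on the HFS diet. Its genotype difference was 0.31 on chow and -0.26 on the HFS diet, neither past the test, and the interaction of -0.57 (SE 0.23, adjusted p = 0.779) did not pass.

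Counting genes whose libraries did not overlap between the genotypes gave shares near or below those of all genes. On chow, 7 of 37 proteasome genes were lower in every Xbp1 LKO than in every Xbp1 fl/fl library, or 18.9% where 15.9% of all genes were, and 0 of 37 were higher where 15.4% of all genes were. On the HFS diet, 1 of 37 (Psmb10) was lower where 12.5% of all genes were, and 0 of 37 were higher where 13.6% of all genes were. No proteasome gene was apart in the same direction on both diets, in contrast to 823 of all 13303 genes that were lower and 660 that were higher on both.

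The diet comparisons address whether HFS feeding changed the same genes. In Xbp1 fl/fl hepatocytes 0 of 37 genes passed, where 0.428% of all genes did, and the median log2 fold change of HFS against chow was -0.05. In Xbp1 LKO hepatocytes 0 of 37 passed, where 0.0601% of all genes did, and the median was -0.08. In each of these comparisons DESeq2 called 0, and 1 of 37 genes had an unadjusted p under 0.05. It was Psmb5 in Xbp1 fl/fl (-0.68, SE 0.19, adjusted p = 0.237) and Psmd9 in Xbp1 LKO hepatocytes (-0.53, SE 0.17, adjusted p = 0.259). Of all 13303 genes, 1190 in Xbp1 fl/fl and 1683 in Xbp1 LKO hepatocytes had such a p. The interaction of genotype and diet passed for 0 of 37 genes, where 0.0% of all genes passed, and DESeq2 called 0. An unadjusted p under 0.05 was found for 2 of 37 genes, Psmb5 and Psmd9, against 816 of all 13303 genes. The intervals of the interaction were the widest, and 16 of 37 lay within 0.5 in either direction. These comparisons share libraries with the genotype comparisons and are not separate evidence. By non-overlap, HFS feeding left 1 of 37 genes higher (Psmd2) and 3 of 37 lower (Psmb5, Psmd7 and Psmd11) in Xbp1 fl/fl hepatocytes, where 6.33% and 7.34% of all genes were. In Xbp1 LKO hepatocytes 2 of 37 were higher and 6 of 37 lower, where 16.7% and 14.4% of all genes were.

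Summed by class, the subunits kept their proportions. The alpha ring summed to 526 ± 49.0 CPM (SD, n = 3) in chow-fed Xbp1 fl/fl, 489 ± 3.14 (SD, n = 2) in chow-fed Xbp1 LKO, 505 ± 17.1 (SD, n = 3) in HFS-fed Xbp1 fl/fl and 495 ± 56.9 (SD, n = 3) in HFS-fed Xbp1 LKO hepatocytes. The beta ring summed to 672 ± 26.1, 632 ± 5.88, 642 ± 28.0 and 604 ± 69.7 CPM in the same groups. Over the base ATPases the sums were 648 ± 42.2, 643 ± 41.4, 624 ± 51.1 and 581 ± 71.1 CPM, and over the other cap subunits 1188 ± 47.3, 1162 ± 75.5, 1185 ± 48.9 and 1109 ± 110 CPM. The ratio of the summed cap to the summed core was 1.48 to 1.69 in the 11 libraries, with group means of 1.53 ± 0.0435, 1.61 ± 0.117, 1.58 ± 0.0386 and 1.54 ± 0.0179. All these groups overlapped except that the beta ring sums of chow-fed Xbp1 LKO libraries (636 and 628) lay below those of chow-fed Xbp1 fl/fl libraries (683, 642 and 690.2).

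**Figure D4:**
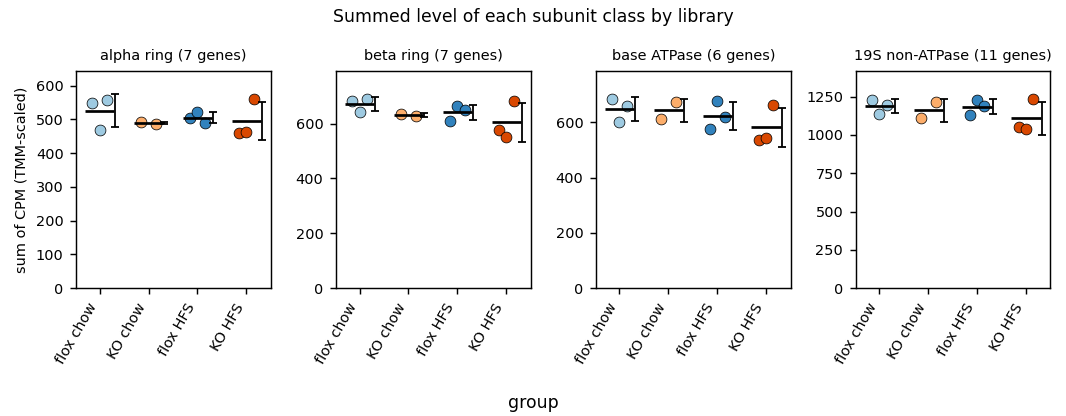
Summed CPM of the 4 classes of constitutive subunit genes in each library (points), with group means (lines) and SDs (bars; n = 3, but n = 2 for chow-fed Xbp1 LKO); the vertical axes start at 0. The groups overlap in every class, except that the beta ring sums of chow-fed Xbp1 LKO libraries lie below those of chow-fed Xbp1 fl/fl libraries. In HFS-fed Xbp1 LKO hepatocytes 1 library is above the other 2.

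The third HFS-fed Xbp1 LKO library stood above its group. It had the highest CPM of its group for 31 of the 31 constitutive subunit genes, whereas it was highest for 36.9% of all genes, and the median gene was 0.19 above its group mean on the log2 scale. In chow-fed Xbp1 fl/fl hepatocytes, the second library was lowest for 25 of 31 genes, against 30.5% of all genes. The third HFS-fed Xbp1 LKO library had more macrophage marker CPM (69.4) than the first and second (37.5 and 40.1), less stellate marker CPM (27.3 against 57.5 and 32.5), and a hepatocyte marker sum of 54800 between theirs. The part of these in the subunit values was not tested. Without this library, the median log2 fold change of the 37 genes on the HFS diet was -0.17, beside 0.002 for all genes. Above 0 were 4 of 37, and 5 had an unadjusted p under 0.05. Of the 37 genes 0 passed, where 285 of all 13156 genes did. The number of all genes at an unadjusted p under 0.05 was not taken in this fit. With all libraries it was 2322 of 13303, beside 3 of the 37.

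The direction of the small genotype shift rested on the scaling. As a share of all counts, the 31 genes took on chow 0.250% to 0.292% in Xbp1 fl/fl and 0.310% to 0.358% in Xbp1 LKO hepatocytes, and 0.264% to 0.283% against 0.275% to 0.353% on the HFS diet. With library totals in place of TMM factors, the median log2 fold change over both diets was 0.30 for all genes tested and 0.25 for the 37 genes. All 13 of 37 genes that passed were higher in Xbp1 LKO hepatocytes. Of all 13303 genes, 5802 passed, and 5304 of these were higher. Relative to the median of all genes, the proteasome genes were lower by the same amount under both scalings, at -0.06.

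Psmb5 is described apart, because the genome holds a near-identical copy of it. Psmb5 (chr14:54614119-54618022, minus strand, GRCm38) has a processed pseudogene, Gm3375, at chr7:3181093-3181888 on the plus strand. Over the 795 bases of the coding sequence, the annotated transcripts differ at 8 bases (98.9% identity over an alignment of 796 columns, 1 of them a gap), and the longest stretch without a difference is 194 bases. Of the 50-base stretches of the Psmb5 transcript, the length of a read, 49.4% occur in Gm3375 as well. The stretch of 90 coding bases with the most differences is shown from both transcripts of GENCODE M21 (bases 407 to 496 of the Psmb5 and 377 to 466 of the Gm3375 transcript), with the 3 differing bases in capitals. The sequences show how little a short read has to tell the genes apart.
Psmb5: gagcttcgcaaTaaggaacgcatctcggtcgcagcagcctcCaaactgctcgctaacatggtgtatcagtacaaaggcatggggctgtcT
Gm3375: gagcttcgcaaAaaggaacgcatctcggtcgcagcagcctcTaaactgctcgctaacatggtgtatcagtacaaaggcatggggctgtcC

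The counts of the gene and its copy largely ran opposite to each other. Psmb5 had 25.4, 28.1 and 21.5 CPM in chow-fed Xbp1 fl/fl, 19.9 and 18.3 in chow-fed Xbp1 LKO, 13.2, 16.0 and 17.6 in HFS-fed Xbp1 fl/fl, and 24.2, 16.8 and 28.4 in HFS-fed Xbp1 LKO hepatocytes. Gm3375 had 0.0552, 0.00 and 11.3 CPM, then 8.45 and 9.61, then 14.8, 13.2 and 8.47, and then 0.204, 6.02 and 3.60 in the same libraries. Libraries low in Psmb5 tended to be high in Gm3375, and the copy took between 0.00% and 52.8% of their sum. The sum was 25.5, 28.1 and 32.8 CPM, 28.4 and 27.9, 28.0, 29.3 and 26.1, and 24.4, 22.8 and 32.01, and its highest library was 1.43 times its lowest. All 4 groups overlapped in the sum.

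**Figure D5:**
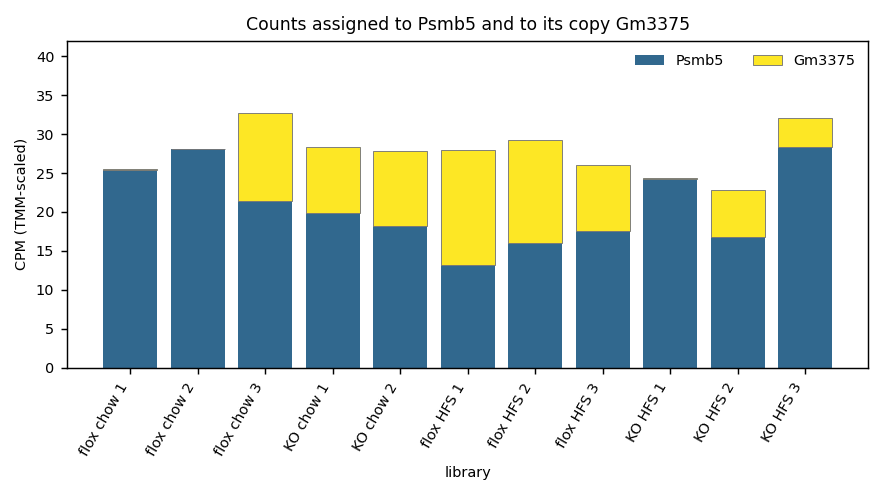
CPM of Psmb5 (dark) stacked on the axis with that of the pseudogene Gm3375 (light) in each of the 11 libraries. Psmb5 alone runs from 13.2 to 28.4 CPM, the copy from 0.00 to 14.8, and the height of the stack from 22.8 to 32.8.

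Alone, Psmb5 had differences that pointed in opposite directions on the 2 diets. The log2 fold change was -0.39 on chow (SE 0.21, adjusted p = 0.341), 0.57 on the HFS diet (SE 0.18, adjusted p = 0.12), -0.68 for the diet in Xbp1 fl/fl hepatocytes and 0.96 for the interaction (SE 0.28, adjusted p = 0.659). With the counts of Gm3375 added in each library, a choice made after the data were seen, the fold changes were -0.03 on chow (SE 0.15, adjusted p = 0.936), -0.07 on the HFS diet (SE 0.14, adjusted p = 0.86), -0.05 for the diet in Xbp1 fl/fl hepatocytes (SE 0.14, adjusted p = 0.96) and -0.04 for the interaction (SE 0.20, adjusted p = 0.985). Psmb5 alone passed on the HFS diet in the fit without the second HFS-fed Xbp1 LKO library (0.75, adjusted p = 0.0468), in the fit without a filter on low counts (0.58, adjusted p = 0.00509), and with library totals (0.83, adjusted p = 0.0174). The sum with Gm3375 was not refitted under those alternatives. Whether the reads came from Gm3375 transcripts was not tested.

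Promoters were searched for the letters that the regulators of these genes are known to prefer. RefSeq promoter sequences (GRCm38.p6, from 250 bases before to 50 bases after the gene start) were matched for 31 of the 38 genes. The core of the antioxidant response element, TGACNNNGC on either strand, which NFE2L1 and NRF2 bind, was found in 5 of 31 (16.1%), against 14.0% of the 27025 genes with a promoter sequence. TGACGT, the core of the unfolded protein response element known for XBP1, was found in 4 of 31 (12.9%) against 8.37% of genes, in Psma1, Psma5, Psmb5 and Psmd8. The composite ERSE motif was found in 0 of 31 and in 0.137% of genes, and the CCAAT box in 13 of 31 (41.9%) against 41.1%. A match is a description of the letters and not a binding site. The 5 antioxidant response element matches are shown with up to 10 bases on each side in the direction of the gene, and the match in capitals. Counted from the RefSeq gene start, they begin at -47, -9, -227, -247 and -31 in the order shown, and those of Psmc6 and Psmd12 read on the opposite strand. For Psmd9 this start lies inside the longer GENCODE gene, which begins further upstream at chr5:123169413. In Psmb5 the match overlaps a TGACGT match.
Psmb5: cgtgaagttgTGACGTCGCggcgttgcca
Psmb6: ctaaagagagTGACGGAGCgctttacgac
Psmc6: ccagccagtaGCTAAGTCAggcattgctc
Psmd12: tctGCTGTGTCAcatttgcccc
Psmd9: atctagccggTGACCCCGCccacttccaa
These windows lie at chr14:54618024-54618052 (minus strand) for Psmb5, chr11:70525338-70525366 (plus) for Psmb6, chr14:45329587-45329615 (plus) for Psmc6, chr11:107479278-107479299 (plus) for Psmd12 and chr5:123228149-123228177 (plus) for Psmd9. The genes with a match had fold changes over both diets of 0.09 (Psmb5), -0.08 (Psmb6), -0.09 (Psmc6), -0.19 (Psmd12) and 0.03 (Psmd9), and none passed the test.

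The genes around the proteasome were read from 5 lists. NFE2L1, its processing enzymes, its small MAF partners and the related NRF2 pathway made a list of 9 genes, all tested. On the HFS diet 1 of 9 passed, where 4.08% of all genes did, and over both diets 2 of 9 did, where 11.9% of all genes did; all were higher. Nfe2l2, which encodes NRF2, had 73.1, 66.0 and 72.9 CPM in HFS-fed Xbp1 fl/fl and 105, 115 and 100.4 in HFS-fed Xbp1 LKO hepatocytes, without overlap. It rose by a log2 fold change of 0.59 on the HFS diet (SE 0.12, adjusted p = 0.0191) and 0.38 over both diets (SE 0.09, adjusted p = 0.0181). The HFS call was lost in 4 of 14 alternatives, all of which left out 1 library, namely any of the HFS-fed Xbp1 fl/fl libraries or the second HFS-fed Xbp1 LKO library (adjusted p = 0.062 to 0.0914); the call over both diets was lost without the second chow-fed or the second HFS-fed Xbp1 LKO library (highest adjusted p = 0.0851). Mafk, a small MAF partner of both factors, had 21.3, 20.3 and 15.6 CPM against 23.9 and 36.3 on chow and 18.6, 16.7 and 19.8 against 20.4, 22.0 and 20.5 on the HFS diet, and rose over both diets by 0.43 (SE 0.12, adjusted p = 0.0399). Its call was lost in 11 of 18 alternatives, 2 of them the replicate blocks and 9 with 1 library left out, with an adjusted p of up to 0.231. Nfe2l1 itself, with 147 to 227 CPM, had a fold change of 0.20 over both diets (SE 0.12, adjusted p = 0.314).

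Assembly and associated factors were found for 14 of 16 listed symbols, the rest being second names of genes found. Over both diets 1 of 14 passed, a share below the 11.9% of all genes. Zfand2a, an arsenite-inducible protein that associates with the proteasome, had 13.0, 9.998 and 13.2 CPM against 14.6 and 23.99 on chow and 14.3, 12.9 and 16.0 against 16.3, 18.0 and 16.6 on the HFS diet. It rose by 0.45 (SE 0.13, adjusted p = 0.0471), and the call was lost in 11 of 18 alternatives, again the 2 replicate blocks and 9 of the fits with 1 library left out (highest adjusted p = 0.279). The 20S assembly chaperones Psmg1, Psmg2, Psmg3, Psmg4 and Pomp had fold changes over both diets of 0.00, -0.05, 0.22, 0.49 and -0.13, none past the test; Psmg4 came closest (SE 0.15, adjusted p = 0.0601). Of the activators PA28 (Psme1 to Psme3) and PA200 (Psme4) and the inhibitor PI31 (Psmf1), 0 of 5 passed in any comparison. Of all genes, 11.9% passed over both diets and 4.75% or fewer in each other comparison. Psmf1 had the smallest p of the 5 over both diets (0.28, SE 0.08, adjusted p = 0.0533). Of the 11 ubiquitin genes, E1 enzymes and shuttle factors, 0 passed in any comparison. Of the subunit genes not matched by the symbol rule, 4 of 5 symbols were found and 0 passed in any comparison. Over both diets the fold change of Adrm1, a ubiquitin receptor of the cap, was -0.05 (adjusted p = 0.849). That of Sem1 was -0.08 (adjusted p = 0.58). With so few genes in each list, 0 calls do not set these lists apart from all genes.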

How the data were processed

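RNA-seq libraries of isolated hepatocytes were deposited as 1 table of raw counts per library. How the authors made these counts is not settled: the study's methods name kallisto, tximport and DESeq2, whereas the submitters' processing notes list cutadapt 1.13, STAR, HTSeq 0.6.1p1, DESeq2 and mm10. Multi-mapped reads and strand are treated differently by these routes, which bears on genes with near-identical copies. The methods give a stranded mRNA kit and the labels a total RNA kit.

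Gene identifiers were matched to GENCODE M21 (GRCm38). Libraries of a group differed by more than counting noise in a chi-square test (25.4 to 91.5 per degree of freedom), so none was treated as 1 library deposited again; separate preparations of 1 sample would not be seen this way. Genes were filtered with filterByExpr (minimum count 10), scaled by TMM, and tested in edgeR 4.0.16 (R 4.3.3) by quasi-likelihood in 1 model of the 4 groups, with Benjamini-Hochberg adjustment over 13303 genes and a threshold of 0.05. The 6 comparisons were the genotype effect on each diet and over both, the diet effect in each genotype, and the interaction. The 95% intervals were taken from the log2 fold change, its standard error and 7 residual degrees of freedom, and the spread within groups from log2 CPM with a prior count of 2. Levels per kilobase divide CPM by the length of the principal transcript. Alternatives were DESeq2 1.42.0, RLE, upper quartile and library total scaling, no filter, only the groups compared, replicate blocks, leaving out each library, and the length of all exons.

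Every proteasome gene is accounted for. Values in every library are given for the 10 genes with the smallest p in the genotype effect over both diets, since none passed, and for Psmb5, Psmb6, Psmb7 and Psmb10; of the other lists, genes that passed or else the one with the smallest p are named, and the rest were named for their role. The genes and lists were chosen with earlier results of these data known. Protein sequences, and promoters of 7 genes, were not used here. The gene with the smallest p in 1 list is not reported here.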

Additional observations from a re-analysis of the deposited data

How the results depend on the processing

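No proteasome gene passed in any of the 6 comparisons with DESeq2, RLE or upper quartile scaling, or in the 4 comparisons that could be fitted on only the groups compared. With library totals, the median of all genes moved by 0.33 on chow, 0.27 on the HFS diet and 0.30 over both diets. In the same order, 1 (Psmd9), 1 (Psmb5) and 13 of 37 genes passed, all higher. The medians of the 37 genes were 0.28, 0.18 and 0.25. Of all 13303 genes, 3000, 1483 and 5802 passed, and 2685, 1288 and 5304 of these were higher. The sign over both diets then turned for Psmb10 (0.0099), Psmd12 (0.11), Psmb2 (0.13), Psmd6 (0.12), Psma3 (0.11), Psma2 (0.14), Psmb1 (0.15), Psma6 (0.17), Psmd3 (0.15), Psmb6 (0.22) and Psmb7 (0.26). Without a filter, 1 of 37 genes passed on the HFS diet, in each diet comparison and in the interaction. It was Psmb5 or, for the diet in Xbp1 LKO hepatocytes, Psmd9, and the cause was not tested. Of all 26016 genes in that fit, 1438 passed on the HFS diet and 269 in the interaction. For the diet, 499 passed in Xbp1 fl/fl and 722 in Xbp1 LKO hepatocytes. Leaving out 1 library gave 0 to 1 calls on the HFS diet (Psmb5) and 0 to 1 over both diets (Psmb10), and Psmb7 ran from -0.065 to 0.0085 over both diets. Psmb5 summed with Gm3375 turned sign to -0.072 on the HFS diet, -0.090 for the diet in Xbp1 LKO hepatocytes, -0.038 in the interaction and -0.053 over both diets. With the length of all exons, the median level was 32.3 CPM per kilobase.

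The replicate numbers shared by the groups showed no consistent pairing: 4 of 15 pairs of libraries had a correlation over 0.1 (mean -0.00869, from -0.199 to 0.231). These were correlations of deviations from the group mean. With 2 or 3 libraries a group such deviations are tied to each other, so they cannot decide whether some libraries were paired. With a replicate block 0 proteasome genes passed in any comparison, and the medians were -0.01 on chow, -0.08 on the HFS diet, -0.05 and -0.09 for the diet in Xbp1 fl/fl and Xbp1 LKO hepatocytes, -0.05 in the interaction and -0.04 over both diets. Over all genes the block gave 455, 412, 38, 19, 0 and 1356 calls in the order chow, HFS, diet in Xbp1 fl/fl, diet in Xbp1 LKO, interaction and both diets, where the test without it gave 632, 543, 57, 8, 0 and 1582. Title and file name number the second Xbp1 LKO library on chow differently; with a replicate block by those numbers 0 proteasome genes passed, the medians were -0.07, -0.08, -0.05, -0.03, 0.01 and -0.06, and 488, 429, 40, 53, 0 and 1372 genes were called, in the same order. DESeq2 gave 1115, 981, 175, 208, 31 and 1940, and no filter 1507, 1438, 499, 722, 269 and 2325, both starting from 26016 genes. Library totals gave 3000, 1483, 58, 10, 0 and 5802 of 13303 genes. With 2 chow-fed Xbp1 LKO libraries, differences on chow and the interaction were less precise, and 27 and 16 of the 37 intervals lay within a log2 change of 0.5.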
